A study of Drosophila melanogaster with 78 samples.

Results

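The genes described here encode the proteins of the mitochondrial ribosome of Drosophila melanogaster. They were chosen by name: every probe set whose platform gene symbol starts with mRpL (large subunit) or mRpS (small subunit) was a member, and the probe set with the highest mean stood for a gene that had 2. This gave 66 probe sets for 64 genes, 43 of the large and 21 of the small subunit, among the 10844 genes that the array names. A further 1 probe set that carries several gene names was left out.

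Mitochondria keep a small genome whose protein-coding genes give core subunits of the respiratory chain and of the ATP synthase. The mitochondrial ribosome translates those few messages in the matrix. Its RNA comes from the mitochondrial genome, while all of its proteins are encoded in the nucleus, made by cytosolic ribosomes and imported. Many of these proteins belong to families shared with bacterial ribosomes, and the others were added during the evolution of mitochondria. The genes are active in all cells that respire, and embryos start with mitochondria from the egg.

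The study profiled whole embryos at stage 15, when the main axon tracts of the nerve cord are laid down, on 78 Affymetrix arrays in 18 groups that are mutants or transgenics of axon guidance genes or wild type (WT). There were 5 arrays each of slit.robo, UNC5, UC2x, URyf.mef, URyf and WT, and 4 each of slit, slit/WT, robo, robo/WT, comm, comm/WT, robo2, robo12, UR2, UR, UC and FRM. The slit gene encodes a repellent made at the midline, the robo genes its receptors, and comm (commissureless) a sorting protein that lowers receptor levels on axons as they cross. The labels explain neither FRM and robo12, nor the names that start with UC or UR, nor the marking "/WT", and give no allele, driver or number of embryos, so all names are used as given. The titles call the replicates biological and the descriptions technical, so the p-values may measure technical spread only. RNA came from all tissues together, so that fewer cells of a type and less RNA per cell cannot be told apart.

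All values below are log2 of the deposited intensity, and a change is a difference of group means on that scale ± the SE of the fit. A member is said to have risen or fallen where limma gave an adjusted p under 0.05 over all 13966 probe sets. The background printed beside a count is the percentage of all 13966 probe sets called in that direction in the same comparison. Each count is also given after quantile normalization, which makes the distribution of values the same on every array, because the 2 versions differed in many groups.

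The mean log2 intensity of a member lay between 8.81 and 12.72, with a median of 11.62, and 63 of 64 members lay above the median of all probe sets, 9.72. Probe sets differ in how strongly they bind, so these values place the members on the scale of the arrays and do not rank genes by RNA level. Markers of the tissues of a whole embryo were present in the files: over the 78 arrays the muscle gene Mlc1 ranged from 14.38 to 15.16 and the basement membrane gene Col4a1 from 13.78 to 14.62. The neuronal gene elav ranged from 7.17 to 9.85, and the neuronal genes nSyb (9.55 to 10.28), futsch (9.64 to 10.64) and brp (10.20 to 10.80) lay higher. The hemocyte gene Hml (7.07 to 7.79) and the germ line gene vas (6.73 to 7.43) stayed near the lower end of the scale. Other hemocyte markers did not, as Pxn ranged from 10.66 to 11.98, and Col4a1 was counted as a hemocyte marker too.

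The spread of an array moved with the members. The SD of all log2 values of an array was 1.71 ± 0.03 (SD, n = 5) in WT and reached 1.81 ± 0.01 (n = 5) in URyf.mef. Across the 78 arrays, after group means were removed, the members' median and the array SD had a Pearson r of 0.834 and a Spearman rho of 0.760, and r was 0.750 without the 2 arrays farthest from the median SD. Across the 18 group means r was 0.536 as deposited and -0.068 after quantile normalization. Bright probe sets weigh in both measures, so these r values are a description. The part of this spread in the results was not tested beyond the settings reported with them. In 6 arrays the SD lay over 0.05 from the group median: URyf replicates 1 and 2, WT replicate 1, robo replicate 4, slit replicate 4 and slit.robo replicate 5.

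The median of the 64 members differed little between groups. In WT it was 11.63, 11.78, 11.61, 11.65 and 11.50 in replicates 1 to 5. The lowest group was UC, with 11.44, 11.48, 11.54 and 11.41. The UNC5 arrays, at 11.79, 11.79, 11.76, 11.73 and 11.77, were the highest group. The UC arrays lay within or below the range of WT and the UNC5 arrays near or just above its upper end, so UC and UNC5 did not overlap each other while both overlapped WT. In URyf the arrays ranged from 11.29 to 11.89, wider than all other groups. After quantile normalization the highest group mean was 11.74 ± 0.07 (n = 4) in robo12, and UNC5 stood at 11.71 ± 0.02 (n = 5) against 11.70 ± 0.07 (n = 5) in WT.

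**Figure D1:**
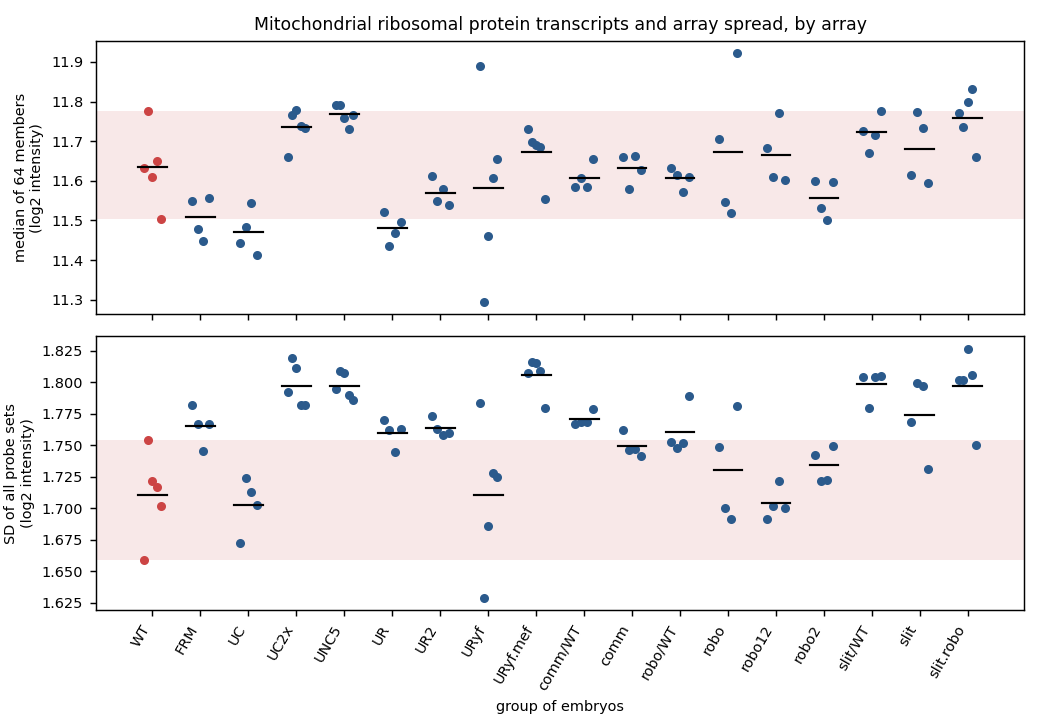
Each point is 1 array: the upper panel gives the median log2 intensity of the 64 members and the lower panel the SD of log2 intensity over all probe sets, by group, with group means as black lines and the WT range shaded. Groups with a high array SD such as UNC5, UC2x and slit/WT also have a high member median, while FRM and UR have a raised array SD and a low member median.

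Nearly every member differed among the 18 groups, as did nearly every gene on the array. The F test was passed by 63 of 64 members against 97.2% of all probe sets, and mRpS18B had an adjusted p of 0.054. The differences were small. From the lowest to the highest group mean, a member spanned 0.21 to 0.96 with a median of 0.43, 18 members spanned over 0.5, and none spanned 1. No change against WT passed 2-fold, and the largest of the 1088 tested was 0.63 (mRpL48 in robo12). Small subunit members spanned 0.45 at the median and large subunit members 0.42.

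Over the 17 comparisons with WT, which all share the WT arrays, 115 of 1088 tests of a member were called higher (10.6%) and 121 lower (11.1%). Of all probe sets, 16.4% were called higher and 23.4% lower, so the members were called less often than the array as a whole in this count. After quantile normalization 49 were higher and 346 lower, against 16.2% and 21.6% of all probe sets. With the array SD as a covariate 10 were higher and 535 lower, against 12.4% and 15.3%. The balance of higher and lower calls thus depended on the treatment of the array spread, being near even as deposited and mostly lower in the other 2 settings, and each group is described below as deposited and after quantile normalization. By gene, 24 members were called higher only, 20 lower only and 16 in both directions. The 4 members called in none of the comparisons as deposited were mRpL12, mRpL30, mRpL52 and mRpS24.

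A smaller core of calls was kept under all of these choices. Of the 236 calls against WT, 50 in 25 genes kept their direction and an adjusted p under 0.05 in every setting run: quantile normalization, the array SD as a covariate, a filter on dim probe sets, a fit of the compared groups alone, a replicate block, the fit without the 6 arrays named above, the mean of a gene's probe sets, and leaving out each array in turn. Among these 50, 43 were lower than WT and 7 higher. With the array SD as a covariate just 10 calls of members were higher and 535 lower. At most 10 higher calls could therefore pass every setting, so this balance is not a result about the members. The 7 higher calls were mRpL48 in robo12 and robo2, mRpL50 in comm/WT and robo/WT, mRpS30 in comm/WT, mRpS29 in robo/WT and mRpL44 in comm. The genes with 3 or more of the lower calls were mRpL22 (FRM, UR, UR2, comm/WT, robo/WT), mRpL17 (FRM, UC, UR, comm/WT), mRpL3 (FRM, UR, UR2), mRpL4 (URyf.mef, robo12, robo2), mRpL40 (UR, comm/WT, robo2), mRpL43 (FRM, URyf.mef, robo/WT), mRpS7 (FRM, UR, robo2) and mRpS31 (FRM, UR, URyf.mef). The share of all probe sets that passed every setting is not given, so these counts are not set against the array as a whole. No setting took RNA quality into account, and signs of it in comm/WT, robo/WT, comm, robo and URyf.mef are given below.

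**Figure D2:**
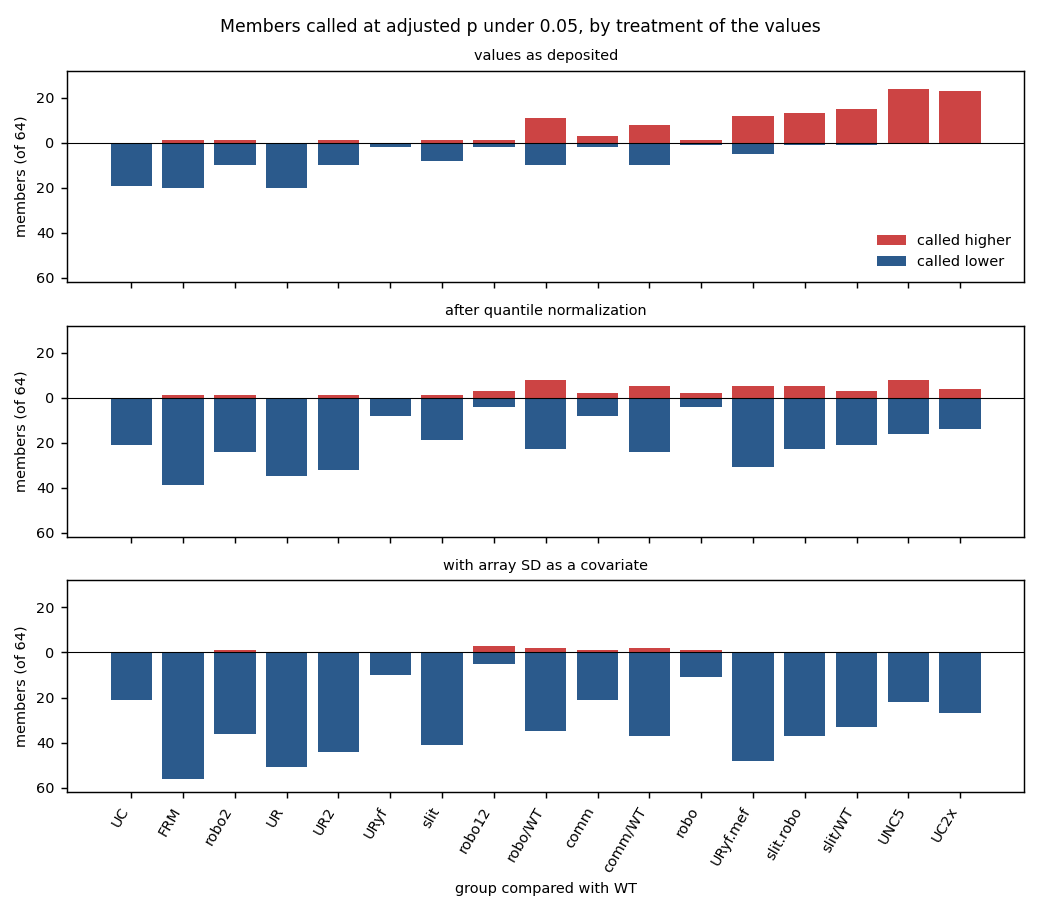
Bars count the members called higher (red, upward) or lower (blue, downward) than WT at an adjusted p under 0.05, of 64, by group, for the values as deposited, after quantile normalization and with the array SD as a covariate. UC2x, for example, has 23 higher calls as deposited, 4 higher and 14 lower after quantile normalization, and 27 lower with the covariate, while FRM and UR have mostly lower calls in each panel.

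FRM, UR and UC had the most lower calls as deposited, and the share of members called lower was above that of all probe sets in each. UR2 and robo2 had 10 lower calls each, 15.6% of the members, which was under the share of all probe sets in UR2 and near it in robo2. In FRM, 1 of 64 members rose and 20 fell (background 17.4% higher and 23.4% lower), and after quantile normalization 1 rose and 39 fell (background 16.7% and 24%). The median member changed by -0.13 against -0.06 for all probe sets. The lowest members were mRpL46, a mitochondria-specific protein of the large subunit, at -0.38 ± 0.08 (adjusted p = 0.00015) and mRpS31, a mitochondria-specific protein of the small subunit, at -0.33 ± 0.08 (0.00095). For mRpL46 the WT arrays read 11.05, 11.07, 11.03, 11.20 and 10.86 and the FRM arrays 10.68, 10.67, 10.59 and 10.69. All 4 FRM arrays were below all 5 WT arrays. The single member that rose was mRpL33, a small protein of a bacterial family, at 0.35 ± 0.13 (0.029), and its change was -0.02 with the array SD as a covariate.

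In UR, 0 of 64 members rose and 20 fell, with 1 above WT at an unadjusted p under 0.05 by limma (background 14.4% higher and 18.8% lower), and after quantile normalization 0 rose and 35 fell (background 14.1% and 18.5%). Without UR replicate 2, 11 fell, and without WT replicate 2, 12 fell. The median member changed by -0.10, and 2 members led the fall. mRpS31 changed by -0.56 ± 0.08 (9.7e-08), which is 1.47-fold. mRpL24, whose bacterial relative lies at the exit of the tunnel through which the new chain leaves, changed by -0.31 ± 0.10 (0.014). In UR2, 1 of 64 members rose and 10 fell (background 16.6% higher and 21.1% lower), and after quantile normalization 1 rose and 32 fell (background 16.2% and 21.2%). mRpL24 was again lowest there at -0.34 ± 0.10 (0.0067). It was followed by mRpL3, from a family placed near the peptidyl transferase centre in bacteria, at -0.28 ± 0.08 (0.006). The mRpL24 arrays read 11.83, 12.09, 11.92, 12.05 and 11.75 in WT, 11.70, 11.56, 11.56 and 11.65 in UR and 11.64, 11.63, 11.59 and 11.49 in UR2. Neither UR nor UR2 overlapped WT. The single rise in UR2 was mRpL33 at 0.39 ± 0.13 (0.019), and without WT replicate 1 it was 0.25 with an adjusted p of 0.14.

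In UC, 0 of 64 members rose and 19 fell, with 0 above WT at an unadjusted p under 0.05 by limma (background 12.4% higher and 15.4% lower), and after quantile normalization 0 rose and 21 fell (background 13.7% and 15.8%). Without UC replicate 1, 12 fell, without UC replicate 4, 10 fell, and without WT replicate 2, 9 fell. The median member changed by -0.14 while the median of all probe sets was 0.00, and 60 of 64 members had a mean under that of WT. The array SD of UC (1.70 ± 0.02, n = 4) was close to that of WT. With only the UC and WT arrays in the fit, 4 members fell. The lowest was mRpS25, a mitochondria-specific small subunit protein, at -0.42 ± 0.09 (0.00013). The next was mRpL23, from the family that forms the docking site at the tunnel exit in bacteria, at -0.31 ± 0.08 (0.002, and 0.051 in the fit of UC and WT alone).

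In robo2, 1 of 64 members rose and 10 fell (background 11.8% higher and 13.8% lower), and after quantile normalization 1 rose and 24 fell (background 12.5% and 14.5%). Without WT replicate 4, 6 fell, and without robo2 replicate 3, 3 fell. The median member there changed by -0.11. The lowest was mRpS7, whose bacterial relative starts the assembly of the head of the small subunit, at -0.36 ± 0.06 (2.6e-06). Its arrays read 12.33, 12.51, 12.31, 12.30 and 12.18 in WT and 12.05, 11.83, 11.94 and 12.05 in robo2. The 4 robo2 arrays were all below the lowest WT array. mRpL41, mitochondria-specific, changed by -0.30 ± 0.09 (0.0062), and its arrays overlapped those of WT. mRpL48 was the single member that rose in robo2.

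In slit, 1 of 64 members rose and 8 fell (background 15.8% higher and 24.2% lower), and after quantile normalization 1 rose and 19 fell (background 15.2% and 19.7%). Without WT replicate 1, 4 fell, without slit replicate 1, 5 fell, and without slit replicate 4, 2 fell. The lowest were mRpL48 at -0.34 ± 0.08 (0.0011) and mRpL55, a mitochondria-specific protein, at -0.21 ± 0.07 (0.012, and 0.068 with only slit and WT in the fit). The one higher call was mRpS9, of a family in the head of the small subunit, at 0.28 ± 0.11 (0.034), which turned to -0.08 with the array SD as a covariate. Without the arrays that stood apart, 4 members were higher and 3 lower in slit. In URyf, 0 of 64 members rose and 2 fell, with 0 above WT at an unadjusted p under 0.05 by limma (background 4.77% higher and 5.01% lower), and after quantile normalization 0 rose and 8 fell (background 6.04% and 5.54%). The 2 lower members were mRpS31 at -0.36 ± 0.08 (0.00049) and mRpL24 at -0.31 ± 0.10 (0.023). Both overlapped WT, and neither passed with only URyf and WT in the fit. Without the arrays that stood apart, 8 members were lower in URyf.

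**Figure D3:**
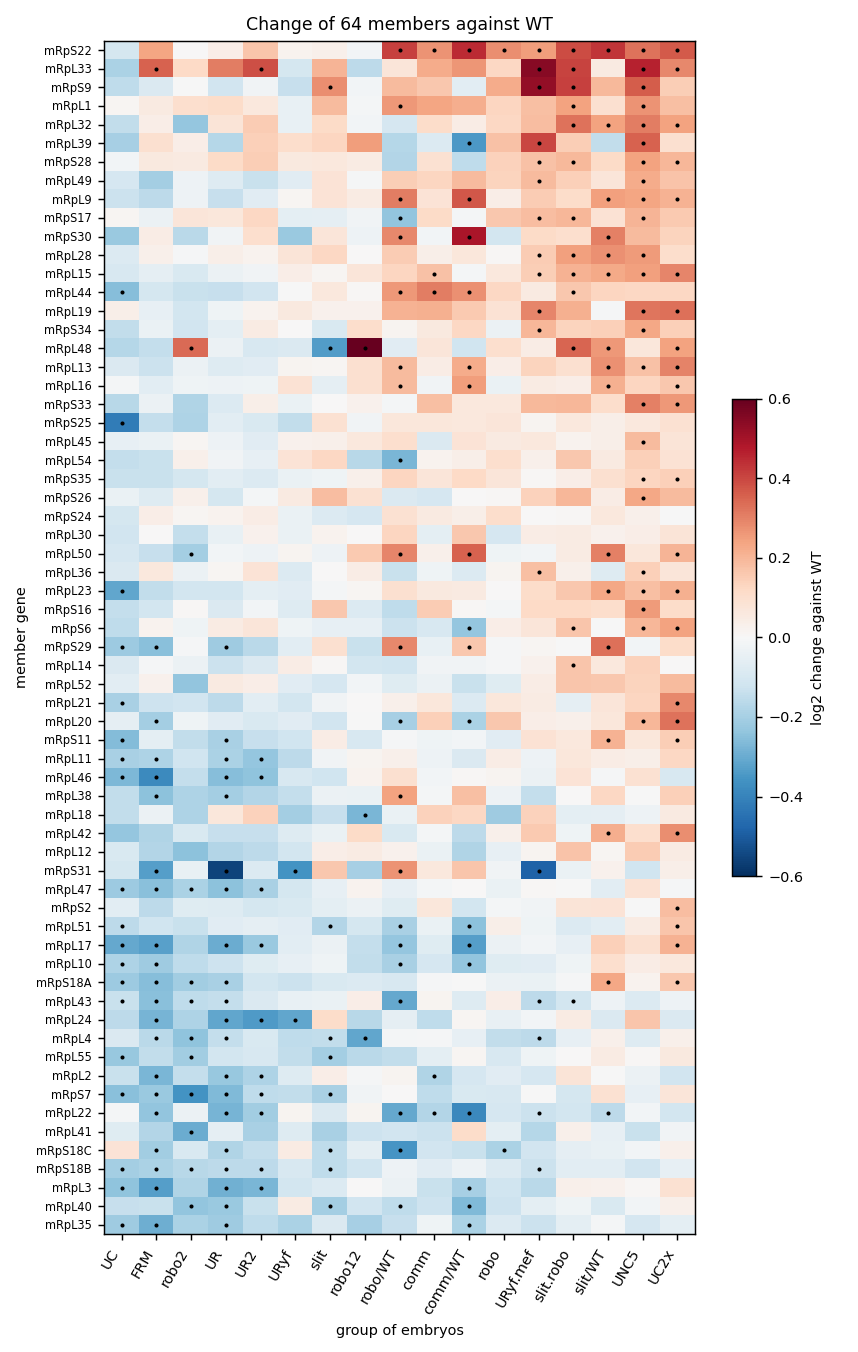
The colour of each cell is the log2 change of 1 of the 64 members (rows, ordered by median change) in 1 of 17 groups (columns, ordered by the members' median) against WT, and a black dot marks an adjusted p under 0.05, for the values as deposited. Rows such as mRpL48, mRpS31 and mRpL39 hold both strong red and strong blue cells, while mRpS22 and mRpL33 are red in most groups and mRpL35 is blue in all of them.

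In UC2x, UNC5, slit/WT and slit.robo the members called as deposited were mostly higher and those called after quantile normalization mostly lower. In UC2x, 23 of 64 members rose and 0 fell, with 1 below WT at an unadjusted p under 0.05 by limma (background 24.2% higher and 34.7% lower), and after quantile normalization 4 rose and 14 fell (background 22.5% and 30.3%). Without WT replicate 5, 12 rose. In UNC5, 24 of 64 members rose and 0 fell, with 0 below WT at an unadjusted p under 0.05 by limma (background 21% higher and 33.3% lower), and after quantile normalization 8 rose and 16 fell (background 19.2% and 28.4%). Without WT replicate 5, 14 rose. In slit/WT, 15 of 64 members rose and 1 fell (background 25.2% higher and 37.5% lower), and after quantile normalization 3 rose and 21 fell (background 23.8% and 32.8%). In slit.robo, 13 of 64 members rose and 1 fell (background 21.2% higher and 35.9% lower), and after quantile normalization 5 rose and 23 fell (background 20.3% and 30.6%). Without WT replicate 5, 8 rose, and without slit.robo replicate 3, 8 rose. The median members of these groups changed by 0.13, 0.13, 0.07 and 0.06 as deposited, and by -0.02, -0.02, -0.03 and -0.08 after quantile normalization. Their array SD was 1.80 in each, above all 5 WT arrays in UC2x, UNC5 and slit/WT, and above 4 of them in the lowest slit.robo array.

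Single members led these groups. mRpS22, a mitochondria-specific small subunit protein, was highest in UC2x at 0.37 ± 0.10 (0.00082) and in slit/WT at 0.43 ± 0.10 (0.00023). mRpL19, of a bacterial family, came next in UC2x at 0.33 ± 0.10 (0.0031). mRpS29, whose mammalian counterpart is the GTP-binding protein DAP3, came next in slit/WT at 0.33 ± 0.07 (4e-05, and 0.057 after quantile normalization). mRpL33 and mRpS9 led in UNC5, at 0.46 ± 0.13 (0.0019) and 0.36 ± 0.10 (0.0023). The same 2 genes led in slit.robo, with mRpS9 at 0.41 ± 0.10 (0.00058) and mRpL33 at 0.41 ± 0.13 (0.005). With the array SD as a covariate none of these calls passed, and the changes of mRpL33, mRpS9, mRpL19 and mRpS22 turned below 0 except for mRpS22 in slit/WT (0.01). The single lower members were mRpL22 in slit/WT at -0.16 ± 0.06 (0.02) and mRpL43, mitochondria-specific, in slit.robo at -0.11 ± 0.05 (0.047). Without the arrays that stood apart mRpL43 had an adjusted p of 0.069.

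URyf.mef moved both ways, as 12 of 64 members rose and 5 fell (background 24.3% higher and 40.7% lower), and after quantile normalization 5 rose and 31 fell (background 22.7% and 36%). Without URyf.mef replicate 1, 6 rose, without URyf.mef replicate 2, 7 rose, without WT replicate 5, 5 rose, without URyf.mef replicate 5, 3 fell, without WT replicate 2, 3 fell, without WT replicate 3, 3 fell, and without WT replicate 5, 8 fell. mRpL33 rose by 0.54 ± 0.13 (0.00019) and mRpS9 by 0.53 ± 0.10 (1.3e-05), and both changes were under 0 with the array SD as a covariate. mRpS31 was lowest at -0.48 ± 0.08 (3.8e-07). mRpL4, of a family that lines the exit tunnel in bacteria, changed by -0.16 ± 0.05 (0.0083).

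comm/WT and robo/WT also held strong calls in both directions. In comm/WT, 8 of 64 members rose and 10 fell (background 21.1% higher and 33.4% lower), and after quantile normalization 5 rose and 24 fell (background 21.1% and 31%). Without WT replicate 2, 13 rose, and without WT replicate 2, 6 fell. In robo/WT, 11 of 64 members rose and 10 fell (background 20.6% higher and 26% lower), and after quantile normalization 8 rose and 23 fell (background 19.9% and 25.4%). Without robo/WT replicate 4, 5 rose, and without WT replicate 2, 5 fell. The highest in comm/WT were mRpS30 at 0.49 ± 0.10 (2.5e-05) and mRpS22 at 0.45 ± 0.10 (0.00018). The highest in robo/WT were mRpS22 at 0.41 ± 0.10 (0.00077) and mRpL9, of a bacterial family, at 0.31 ± 0.10 (0.0074). The lowest in comm/WT were mRpL22 at -0.39 ± 0.06 (1.6e-07) and mRpL39 at -0.34 ± 0.10 (0.0044). In robo/WT they were mRpS18C, of the S18 family at the platform of the small subunit, at -0.35 ± 0.06 (2.3e-06) and mRpL22 at -0.31 ± 0.06 (2.6e-05). With the array SD as a covariate, mRpS22 had an adjusted p of 0.076 in comm/WT and 0.056 in robo/WT, and mRpL9 had 0.35 in robo/WT. These 2 groups also had the largest gap between the 3' and 5' probe sets of the GAPDH control, 2.28 in comm/WT and 2.19 in robo/WT against 1.71 in WT. For the actin control the gap was 1.63 in comm/WT, 1.46 in comm, 1.35 in robo/WT, 1.24 in robo and 1.22 in URyf.mef, against 0.79 in WT. Every array of these groups lay above the highest WT array, 1.06, in the actin gap. The part of RNA quality in the calls of these groups against WT was not tested.

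The remaining groups showed few calls. In comm, 3 of 64 members rose and 2 fell (background 12.1% higher and 15.4% lower), and after quantile normalization 2 rose and 8 fell (background 12.7% and 13.8%). The highest was mRpL44, whose human counterpart has the fold of RNase III, at 0.31 ± 0.08 (0.0014). Its arrays read 11.71, 11.61, 11.52, 11.78 and 11.52 in WT and 12.04, 11.91, 11.81 and 11.98 in comm. The comm arrays all lay above the WT arrays. mRpS22 rose by 0.27 ± 0.10 (0.041). The 2 that fell were mRpL2, of the core of the large subunit, at -0.18 ± 0.06 (0.019) and mRpL22 at -0.17 ± 0.06 (0.022). With only comm and WT in the fit their adjusted p was 0.061 and 0.066, and mRpS22 had 0.43 with the array SD as a covariate.

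In robo, 1 of 64 members rose and 1 fell (background 7.81% higher and 8.82% lower), and after quantile normalization 2 rose and 4 fell (background 8.99% and 8.74%). They were mRpS22 at 0.28 ± 0.10 (0.046) and mRpS18C at -0.19 ± 0.06 (0.018), and neither passed with only robo and WT in the fit. Without the arrays that stood apart the count in robo was 0 higher and 8 lower by limma. In robo12, 1 of 64 members rose and 2 fell (background 8.51% higher and 10.1% lower), and after quantile normalization 3 rose and 4 fell (background 10.3% and 10.9%). mRpL48 rose, and mRpL4 at -0.31 ± 0.06 (2e-05) and mRpL18, of the family that binds 5S ribosomal RNA in bacteria, at -0.27 ± 0.08 (0.0087) fell. For mRpL18 the adjusted p was 0.062 with only robo12 and WT in the fit.

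Among members of the large subunit, mRpL48 had the widest span of group means. It is found in mitochondria and not in bacteria. The WT arrays read 10.76, 10.76, 10.65, 10.74 and 10.67, and the robo12 arrays 11.28, 11.25, 11.52 and 11.33. The robo2 arrays read 11.16, 10.97, 10.88 and 11.21, the slit/WT arrays 11.02, 10.93, 10.92 and 11.04 and the slit arrays 10.16, 10.48, 10.50 and 10.39. The robo12, robo2 and slit/WT arrays were all above WT and the slit arrays all below it. The change was 0.63 ± 0.08 in robo12 (9.7e-09), 1.55-fold, and 0.34 ± 0.08 in robo2 (0.001). mRpL48 rose in 5 groups and fell in 1 as deposited, with the same counts after quantile normalization, but with the array SD as a covariate it rose in 2 and fell in 8. Its group means correlated with the median of the other members at r = 0.44 over 18 groups.

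mRpL39, whose human counterpart resembles part of a threonyl-tRNA synthetase, spanned 0.74, from comm/WT to URyf.mef. Its arrays read 11.29, 11.62, 11.42, 11.66 and 11.34 in WT, 11.90, 11.85, 11.84, 12.01 and 11.73 in URyf.mef and 10.85, 10.80, 11.45 and 11.39 in comm/WT. The 5 URyf.mef arrays were above WT. In comm/WT replicates 1 and 2 lay far below replicates 3 and 4, and without replicate 1 or replicate 2 the adjusted p for comm/WT was 0.054 or 0.068. The gap between the 3' and 5' GAPDH probe sets split these arrays in the same way, at 2.80 and 2.75 in replicates 1 and 2 against 1.81 and 1.78 in replicates 3 and 4, and its part in this result was not tested.

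mRpL33 spanned 0.74, from UC to URyf.mef, and rose in 6 groups. In WT it read 10.47, 11.20, 11.05, 11.25 and 11.06, so that replicate 1 stood far below the other 4. In UC it read 10.536, 11.003, 10.968 and 10.758 and in URyf.mef 11.60, 11.61, 11.66, 11.49 and 11.40. All 5 URyf.mef arrays were above WT and UC. Its group means followed the other members weakly, at r = 0.17 as deposited and -0.35 after quantile normalization over 18 groups.

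mRpL22, of a family that lines the exit tunnel in bacteria, fell in 8 of 17 groups as deposited, more than any other member in that version. Its arrays read 10.92, 10.95, 10.92, 10.85 and 10.80 in WT, 10.54, 10.37, 10.58 and 10.51 in comm/WT and 10.57, 10.62, 10.60 and 10.52 in robo/WT. Both groups lay below all WT arrays. After quantile normalization mRpL22 fell in 10 groups, and in 10 with the array SD as a covariate. Other members fell more often in these settings, such as mRpS7 in 16 and 16, mRpL35 in 15 and 15 and mRpL55 in 15 and 17. The other members called lower most often as deposited were mRpL43 (7 groups), mRpS18B (7), mRpS7 (6), mRpL17 (6) and mRpL4 (6), with no higher call except 1 of mRpL17 in UC2x. After quantile normalization mRpL43 fell in 12, mRpS18B in 11, mRpL17 in 9 and mRpL4 in 11. The members called higher most often were mRpS22 (9 groups), mRpL15 (6), mRpL33 (6), mRpL9 (5), mRpL13 (5) and mRpL48 (5). After quantile normalization mRpS22 rose in 9 groups, mRpL33 and mRpL48 in 5 and mRpL9 in 2, while mRpL15 and mRpL13 rose in 0 by limma and fell in 6 and 3. With the array SD as a covariate the balance was the opposite, as mRpS22 rose in 1 and fell in 2, mRpL48 rose in 2 and fell in 8, and mRpL33 and mRpL9 rose in 0 by limma and fell in 4 and 5.

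**Figure D4:**
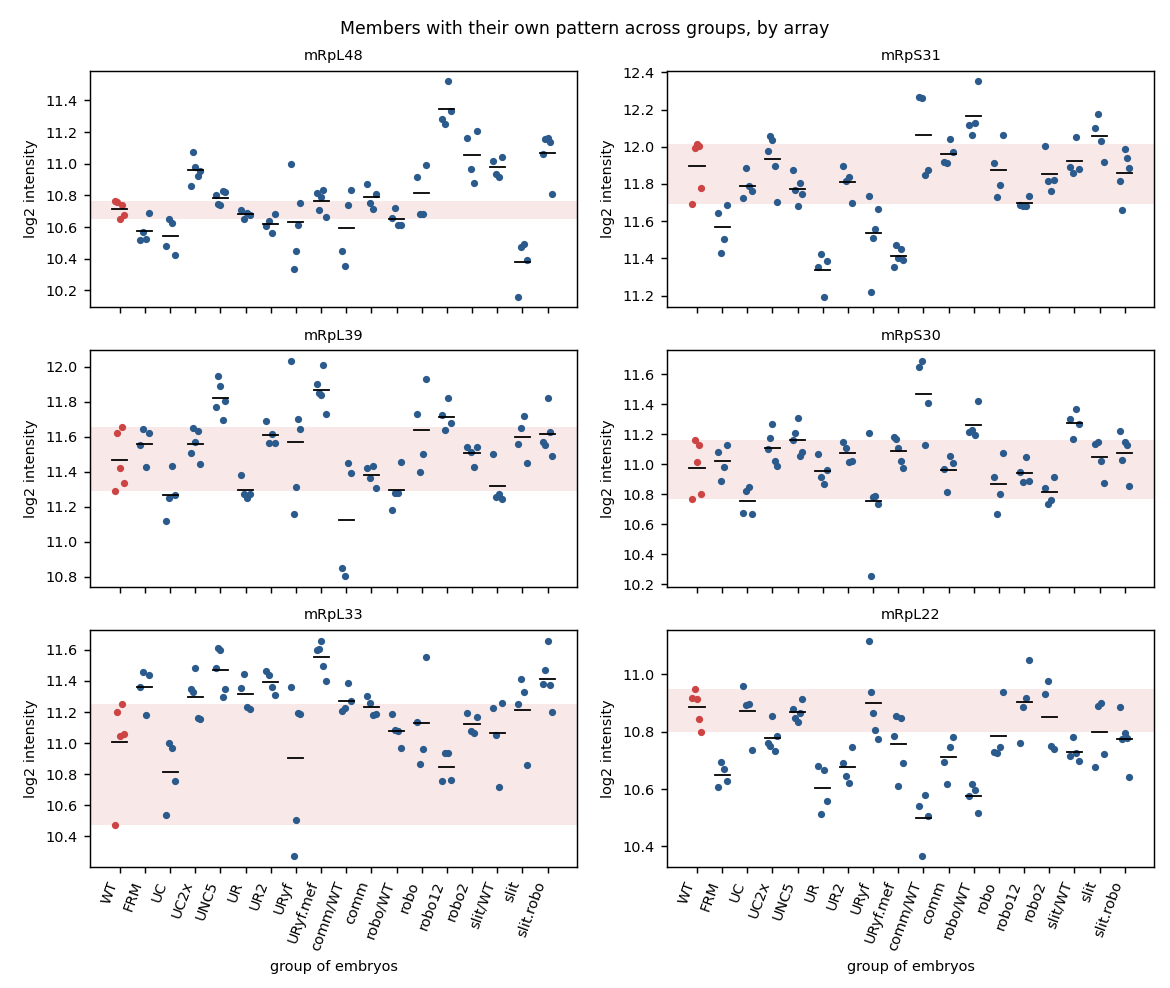
Points give the log2 intensity of 6 members on each array by group, black lines the group means and shading the range of the 5 WT arrays (red). mRpL48 is highest in robo12 and lowest in slit, mRpS31 is lowest in UR and URyf.mef, mRpL39 and mRpS30 split among the comm/WT arrays, mRpL33 has 1 low WT array, and mRpL22 is lowest in comm/WT and robo/WT.

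Among members of the small subunit, mRpS31 had the widest span, 0.83 from UR to robo/WT. Its arrays read 11.691, 11.995, 12.014, 12.004 and 11.778 in WT and 11.35, 11.43, 11.19 and 11.38 in UR. In FRM they read 11.64, 11.43, 11.50 and 11.69, and in robo/WT 12.12, 12.06, 12.13 and 12.35. The UR arrays all lay below WT, the FRM arrays did so too by a narrow margin, and the robo/WT arrays lay above it. The call in robo/WT was higher and those in FRM, UR, URyf and URyf.mef lower, as deposited.

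mRpS30, whose mammalian counterpart sits in the large subunit, spanned 0.71 from UC to comm/WT. Its arrays read 10.77, 11.16, 11.01, 11.13 and 10.80 in WT, 11.65, 11.69, 11.13 and 11.40 in comm/WT and 10.97, 10.81, 11.06 and 11.01 in comm. In robo/WT they read 11.21, 11.23, 11.20 and 11.42 and in robo 10.92, 10.67, 10.80 and 11.08. comm/WT replicate 3 lay inside the range of WT and the other 3 above it, while all 4 robo/WT arrays were above WT. mRpS22 spanned 0.56 from UC to comm/WT, mRpS9 0.68 from UC to URyf.mef and mRpS29 0.58 from FRM to slit/WT. The other members with a span among the 12 widest were mRpL44 (0.56, UC to comm), mRpL32 (0.56, robo2 to slit.robo), mRpL50 (0.56, robo2 to comm/WT) and mRpL23 (0.55, UC to slit/WT).

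By subunit, in the values as deposited, large subunit members had 72 higher and 87 lower calls of 731 tests and small subunit members 43 higher and 34 lower of 357. This split follows the gene symbols alone, so a member such as mRpS30 counts as small subunit although its mammalian counterpart sits in the large one. After quantile normalization the counts by subunit were 30 and 229 for the large and 19 and 117 for the small subunit. Of all probe sets, 16.2% were then called higher and 21.6% lower. By origin, the 38 members of bacterial families had 70 higher (10.8%) and 77 lower (11.9%) calls of 646 as deposited. The 26 mitochondria-specific members had 45 (10.2%) and 44 (9.95%) of 442. These shares too lay below those of all probe sets. After quantile normalization the counts were 20 and 224 for the former and 29 and 122 for the latter. This division was made from general knowledge after the values had been seen, and the difference was not tested. It counted mRpL47 as mitochondria-specific, although its family is shared with bacterial ribosomes, so the counts by origin hold only for the division as made.

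The members followed each other loosely across groups. Over the 2016 pairs of members, the median Pearson r of the 18 group means was 0.44 and 90.9% of pairs were above 0, and after quantile normalization these were 0.27 and 76.9%. The members nearest to the median of the others over 18 groups were mRpL11 (r = 0.88), mRpL12 (0.88), mRpL15 (0.88) and mRpL3 (0.86). In bacteria L11 and L12 belong to the stalk that recruits translation factors. The farthest were mRpL18 (-0.09), mRpS24 (0.08), mRpL41 (0.15) and mRpL33 (0.17). The same 78 arrays enter all of these r values, so the spread of an array is shared by all members. The r of pairs of other genes is not given, so these values do not set the members apart from other genes.

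The 2 genes with a further probe set did not give 1 answer. For mRpL11, the dimmer probe set was called lower in 10 groups and the brighter in 4, and the direction was the same in 7 of 17 comparisons. For mRpL12, the dimmer was called higher in 1 and lower in 9 groups and the brighter in 0 by limma, with the same direction in 6 of 17. Over 18 group means the probe sets correlated at r = -0.33 for mRpL11 and -0.42 for mRpL12. The values of mRpL11 and mRpL12 therefore hold for the brighter probe set alone.

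Comparisons between related groups leave the WT arrays out. UC2x against UC gave the most calls, as 50 of 64 members were higher and 0 lower, with 0 lower at an unadjusted p under 0.05 by limma (background 30.5% higher and 38.7% lower), and after quantile normalization 22 were higher and 5 lower (background 29.5% and 34.4%). The median member differed by 0.28 as deposited and 0.10 after quantile normalization, but with the array SD as a covariate 5 were higher and 10 lower. The array SD was 1.80 in UC2x and 1.70 in UC. mRpL23 was higher in UC2x by 0.53 ± 0.08 (9.1e-08). Its arrays read 11.68, 11.77, 11.60 and 11.55 in UC and 12.002, 12.254, 12.175, 12.121 and 12.335 in UC2x, without overlap. mRpL17, of a bacterial family, was higher by 0.51 ± 0.08 (6.6e-08). Both calls held in every setting, the covariate included.

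Between UR2 and UR, 1 of 64 members were higher and 0 lower, with 0 lower at an unadjusted p under 0.05 by limma (background 2.91% higher and 2.93% lower), and after quantile normalization 2 were higher and 0 lower (background 3.31% and 3.11%). The member was mRpS31, at 0.47 ± 0.09 (4.5e-05). Its UR2 arrays read 11.90, 11.82, 11.84 and 11.70, all above the UR arrays given before. This call held in every setting.

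Between URyf.mef and URyf, 21 of 64 members were higher and 3 lower (background 26.7% higher and 38.9% lower), and after quantile normalization 6 were higher and 20 lower (background 23.8% and 35.4%). Without URyf replicate 1, 37 were higher, without URyf replicate 2, 6 were higher, and without URyf replicate 3, 11 were higher. mRpS9 was higher in URyf.mef by 0.67 ± 0.10 (1.4e-07) and mRpL33 by 0.65 ± 0.13 (1.7e-05). The mRpS9 arrays read 11.21, 10.52, 10.80, 10.94 and 11.17 in URyf and 11.65, 11.69, 11.63, 11.64 and 11.38 in URyf.mef, without overlap. With the array SD as a covariate mRpS9 stood at 0.13 and mRpL33 at -0.01, and neither passed. mRpS18C and mRpL22 were lower, by -0.16 ± 0.06 (0.0095) and -0.14 ± 0.06 (0.023). Without URyf replicates 1 and 2 and the other arrays that stood apart, 20 were higher and 0 lower by limma. The GAPDH gap ranged from 1.83 to 1.997 in URyf.mef and from 1.35 to 1.79 in URyf, and its part here was not tested.

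Between slit and slit/WT, 1 of 64 members were higher and 15 lower (background 13.8% higher and 12.6% lower), and after quantile normalization 4 were higher and 10 lower (background 13.2% and 11.8%). Without slit/WT replicate 1, 9 were lower, and without slit replicate 4, 8 were lower. mRpL48 was lower in slit by -0.60 ± 0.09 (3.2e-07), 1.51-fold, and mRpS22 by -0.40 ± 0.11 (0.0036). The mRpS22 arrays read 11.05, 10.79, 10.93 and 10.97 in slit/WT and 10.39, 10.66, 10.77 and 10.32 in slit, without overlap, while the WT arrays read 10.46, 10.67, 10.42, 10.53 and 10.44. mRpL39 was the one higher call, at 0.28 ± 0.11 with an adjusted p of 0.05 at the threshold. Of the lower calls, 8 held in every setting.

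Between robo and robo/WT, 9 of 64 members were higher and 8 lower (background 12% higher and 17.1% lower), and after quantile normalization 16 were higher and 7 lower (background 15.1% and 15.6%). Without robo/WT replicate 4, 4 were lower, without robo replicate 2, 4 were lower, without robo replicate 3, 4 were lower, and without robo replicate 4, 13 were lower. Lower in robo were mRpS30 by -0.40 ± 0.10 (0.0022) and mRpL50, mitochondria-specific, by -0.32 ± 0.07 (0.00033). Higher were mRpS17, of a family that binds early in assembly in bacteria, by 0.40 ± 0.09 (0.00031) and mRpL54, mitochondria-specific, by 0.38 ± 0.10 (0.0025). Without the arrays that stood apart 8 were higher and 21 lower. The GAPDH gap ranged from 1.96 to 2.31 in robo/WT and from 1.73 to 1.97 in robo, and its part here was not tested.

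Between comm and comm/WT, 5 of 64 members were higher and 6 lower (background 9.52% higher and 12.3% lower), and after quantile normalization 13 were higher and 3 lower (background 11.4% and 11.6%). Without comm/WT replicate 1, 3 were higher, without comm/WT replicate 2, 1 was higher, without comm/WT replicate 3, 9 were higher, without comm/WT replicate 4, 8 were higher, without comm/WT replicate 1, 3 were lower, without comm/WT replicate 2, 3 were lower, without comm/WT replicate 3, 10 were lower, and without comm replicate 3, 3 were lower. mRpS30 and mRpL50 were again lowest, at -0.51 ± 0.10 (0.00015) and -0.32 ± 0.07 (0.00044). The GAPDH gap was 1.90 to 1.95 in comm, against 2.80, 2.75, 1.81 and 1.78 in comm/WT, whose replicates 1 and 2 were also those with the highest mRpS30, and its part in this comparison was not tested. mRpL20, of a family needed early in assembly in bacteria, was highest at 0.33 ± 0.07 (0.00016), before mRpL17 at 0.26 ± 0.08 (0.017). The 3 calls of mRpS30, mRpL50 and mRpL20 held in every setting, as did those of mRpS30, mRpL50, mRpS17 and mRpL54 between robo and robo/WT.

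WT was also set against the mean of the other 17 groups, since all 17 comparisons share its arrays. In this comparison, 8 of 64 members were higher and 1 lower (background 30.8% higher and 18.1% lower), and after quantile normalization 31 were higher and 1 lower (background 27% and 17.8%). Without WT replicate 1, 3 were higher, without WT replicate 2, 3 were higher, without WT replicate 3, 5 were higher, and without WT replicate 4, 5 were higher. The median member differed by 0.0007 as deposited and 0.08 after quantile normalization. mRpL35, of a bacterial family, was higher in WT by 0.14 ± 0.05 (0.025), and its mean was highest in WT of all 18 groups. mRpL22 was higher in WT by 0.14 ± 0.04 (0.0051), a call that held in every setting. mRpS22 was the one lower in WT, at -0.21 ± 0.07 (0.012), and it stood at 0.03 with the array SD as a covariate.

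The other genes of mitochondrial gene expression were called lower more often than higher in both versions of the values, as were all probe sets. This list held 31 measured genes for transcription, replication and translation in mitochondria and for the mitochondrial aminoacyl-tRNA synthetases, which charge tRNA for the same ribosome. Of their 527 tests against WT, 28 were higher (5.31%) and 137 lower (26%), against 16.4% and 23.4% of all probe sets. After quantile normalization 29 were higher (5.50%) and 129 lower (24.5%), against 16.2% and 21.6%. The share called lower was thus near that of all probe sets in both versions, and the share called higher below it. The prolyl-tRNA synthetase ProRS-m fell in 16 groups, most in UC2x at -0.50 ± 0.06 (adjusted p = 5.4e-10). TFAM, which packs mitochondrial DNA and is needed for its transcription, fell in 16 groups, most in comm/WT at -0.42 ± 0.06 (1.2e-07). The valyl-tRNA synthetase ValRS-m fell in 13, most in FRM at -0.37 ± 0.08 (0.00012), and the cysteinyl-tRNA synthetase CysRS-m in 9, most in robo/WT at -0.50 ± 0.07 (5.7e-08). At the other end, the elongation factor mEFTu1 rose in 5 groups, most in UNC5 at 0.40 ± 0.08 (3.4e-05), PheRS-m in 5, LeuRS-m in 2 and GluRS-m in 1. PheRS-m and LeuRS-m also fell in 1 group each.

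The 14 measured genes of mitochondrial protein import, the route by which the ribosomal proteins enter, were called higher in 35 (14.7%) and lower in 47 (19.7%) of 238 tests, both near the shares of all probe sets given before. After quantile normalization they were called higher in 25 (10.5%) and lower in 70 (29.4%). The inner membrane translocase gene Tim17a1 fell in 12 groups, most in slit/WT at -0.42 ± 0.07 (2.2e-06). Roe1, a co-chaperone of mitochondrial Hsp70, fell in 12, most in slit at -0.78 ± 0.10 (9.1e-10). The mitochondrial Hsp70 gene Hsc70-5 rose in 10, most in comm/WT at 0.92 ± 0.15 (6.3e-07), and the outer membrane receptor genes Tom70 and Tom20 in 9 and 7. Tom70 also fell in 1 group, robo12.

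The 69 measured genes of oxidative phosphorylation, whose complexes hold the products of the mitochondrial ribosome, had 136 higher (11.6%) and 177 lower (15.1%) calls of 1173 as deposited and 49 (4.18%) and 436 (37.2%) after quantile normalization. For this list and those that follow, the shares of all probe sets were 16.4% and 23.4% as deposited and 16.2% and 21.6% after quantile normalization. The 37 measured cytosolic ribosomal protein genes had 44 (7%) and 52 (8.27%) of 629, and 21 (3.34%) and 67 (10.7%) after quantile normalization, with medians between -0.04 and 0.01 in all 17 groups as deposited. The mitochondrial ribosomal protein genes that the naming rule leaves out, tko (S12 family) and bonsai (S15 family), had 6 higher (17.6%) and 2 lower (5.88%) calls of 34, and 2 (5.88%) and 4 (11.8%) after quantile normalization. bonsai fell in robo2, at -0.46 ± 0.08 (9.7e-06), and in FRM, at -0.21 ± 0.08 (0.035). It rose in slit/WT by 0.31 ± 0.08 (0.001), comm/WT by 0.30 ± 0.08 (0.0018), robo/WT by 0.205 ± 0.08 (0.036) and UC2x by 0.18 ± 0.08 (0.042).

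**Figure D5:**
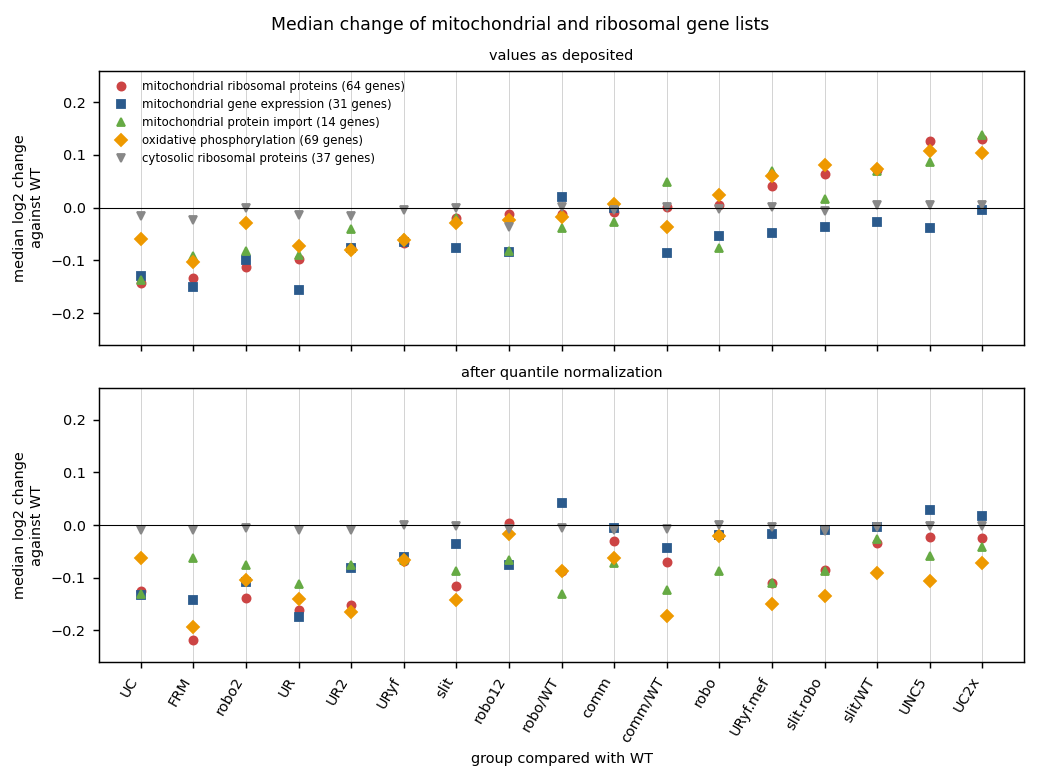
Points are the median log2 change of each gene list against WT in 17 groups, for the values as deposited (upper) and after quantile normalization (lower). The ribosomal proteins of mitochondria and oxidative phosphorylation genes run from below to above 0 in the upper panel and lie mostly below 0 in the lower one, the mitochondrial gene expression list lies mostly below 0 in both, and the cytosolic ribosomal proteins stay near 0.

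Tissue markers were called in the comparisons with WT as well, and no relation of their changes to those of the members was computed. Of all probe sets, 16.4% were called higher and 23.4% lower over these comparisons as deposited, and 16.2% and 21.6% after quantile normalization. The 3 measured muscle markers (Mlc1, Tm2 and up) were called higher than WT in 43 of 51 tests (84.3%) and lower in 0 by limma. Their medians ran from 0.03 in robo12 to 0.63 in UNC5. After quantile normalization they were called higher in 32 (62.7%) and lower in 0 by limma. The 4 neuronal markers were called higher in 15 (22.1%) and lower in 8 (11.8%) of 68 tests. The 3 glial markers were called higher in 13 (25.5%) and lower in 3 (5.88%) of 51 and the 3 hemocyte markers in 7 (13.7%) and 8 (15.7%) of 51. The 3 epidermal and cuticle markers were called higher in 33 (64.7%) and lower in 8 (15.7%) of 51. For the 2 midgut markers these counts were 20 (58.8%) and 10 (29.4%) of 34, and for the 2 germ line and maternal markers 3 (8.82%) and 19 (55.9%) of 34. Markers and members were not compared group by group, and the part of tissue makeup or exact age in the members' changes was not tested.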

How the data were processed

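RNA from whole stage 15 embryos was measured on 78 Affymetrix arrays; per the labels' protocols, QIAGEN columns were used for extraction and biotinylated cRNA was made from 6 ug. The deposited values are intensities on a linear scale, made with RMA per the submitters' processing notes; no version is given in the sources used here. Array medians of the deposited intensity lay between 810.4 and 857.3, the arrays do not share 1 distribution, and no 2 arrays were identical. The plan had foreseen log2 values, so log2 of the deposited intensity was taken first.

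Of 14010 probe sets, 44 controls were left out. The platform annotation gave 1 gene for 12443 probe sets, several for 327 and no gene for 1196; 12394 were brought to current symbols of the RefSeq table, and all 64 members matched with none renamed. A gene with several probe sets counts by the one with the highest mean.

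In limma 3.58.1 (R 4.3.3), lmFit, contrasts.fit and eBayes were run on the 78 arrays with 1 mean per group, leaving 60 residual degrees of freedom. Two-sided p-values were adjusted by Benjamini-Hochberg over 13966 probe sets within each comparison, with a threshold of 0.05: 17 comparisons with WT, 6 between related groups, WT against the unweighted mean of the other 17, and an F test. The fit was tested on simulated data. Summaries and figures were made in Python 3.11.15 with pandas 2.3.3, numpy 2.4.6 and matplotlib 3.10.9.

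Settings varied were quantile normalization, a filter below percentile 40 of mean intensity, a fit of the compared groups, a replicate block, the array SD as a covariate, leaving out 6 arrays whose SD lay over 0.05 from the group median, the mean of a gene's probe sets, and leaving out each array. The members, gene lists and settings were chosen with earlier results of these data known. The text names the 12 members with the widest span, the 6 most often called in each direction, the 2 highest and 2 lowest per comparison, the 4 nearest and 4 farthest by correlation, and list genes among the 4 highest or lowest. Promoter and protein sequences were not analysed here.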

Additional observations from a re-analysis of the deposited data

Results flagged for a closer look

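In groups of 4 or 5 arrays, the highest or lowest array was compared with the rest by its gap to the nearest array as a share of the group's range (Dixon's 95% limit). This was done for the median of the members and for members named with values, 60 sets of arrays in all, of which chance alone would mark about 1 in 20, and 4 were marked. The median of the members was 11.55 in replicate 5 of URyf.mef, below the other 4 arrays of that group. mRpS9 stood at 11.38 on the same array, also below the other 4. mRpL33 stood at 10.47 in replicate 1 of WT, an array whose SD stood apart as well. mRpS30 stood at 11.42 in replicate 4 of robo/WT, above the other 3. Without replicate 1 of WT, the rise of mRpL33 in FRM, in UR2 and in slit.robo lost its adjusted p under 0.05. The cause of these values was not tested.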

How the results depend on the processing

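Every count of members that an alternative moved by over 1.5 times is given here, by setting, and the cause of each move was not tested. Shares of all probe sets by comparison are given above only as deposited and after quantile normalization. With the array SD as a covariate, 12.4% of all probe sets were called higher and 15.3% lower over the 17 comparisons with WT together. The counts below thus show how the calls depend on the setting and are not results about the members. After quantile normalization, the counts that moved by over 1.5 times were higher in UC2x (4), UNC5 (8), URyf.mef (5), comm/WT (5), robo (2), robo12 (3), slit/WT (3), slit.robo (5), slit against slit/WT (4), robo against robo/WT (16), comm against comm/WT (13), UC2x against UC (22), UR2 against UR (2), URyf.mef against URyf (6), WT against the others (31) and lower in FRM (39), UC2x (14), UNC5 (16), UR (35), UR2 (32), URyf (8), URyf.mef (31), comm/WT (24), comm (8), robo/WT (23), robo (4), robo12 (4), robo2 (24), slit/WT (21), slit (19), slit.robo (23), comm against comm/WT (3), UC2x against UC (5), URyf.mef against URyf (20). With the array SD as a covariate, the counts that moved by over 1.5 times were higher in FRM (0), UC2x (0), UNC5 (0), UR2 (0), URyf.mef (0), comm/WT (2), comm (1), robo/WT (2), robo12 (3), slit/WT (0), slit (0), slit.robo (0), slit against slit/WT (8), robo against robo/WT (23), comm against comm/WT (22), UC2x against UC (5), UR2 against UR (2), URyf.mef against URyf (0), WT against the others (48) and lower in FRM (56), UC2x (27), UNC5 (22), UR (51), UR2 (44), URyf (10), URyf.mef (48), comm/WT (37), comm (21), robo/WT (35), robo (11), robo12 (5), robo2 (36), slit/WT (33), slit (41), slit.robo (37), UC2x against UC (10), URyf.mef against URyf (32), WT against the others (0). With that covariate the array SD is in part confounded with the groups. When just the compared groups were fitted, the counts that moved by over 1.5 times were higher in UC2x (15), UR2 (0), robo (0), slit (0), slit.robo (8), UR2 against UR (2), URyf.mef against URyf (7) and lower in UC (4), UR (10), URyf (0), URyf.mef (3), comm/WT (5), comm (0), robo/WT (5), robo (0), robo12 (1), robo2 (4), slit (1), slit.robo (0), robo against robo/WT (5), URyf.mef against URyf (1). That fit has fewer arrays to estimate the spread. Without the arrays that stood apart, the counts that moved by over 1.5 times were higher in comm (5), robo (0), slit (4), slit.robo (20), slit against slit/WT (5), comm against comm/WT (12), UR2 against UR (2) and lower in UC (30), UNC5 (2), URyf (8), robo (8), robo12 (5), robo2 (21), slit (3), slit.robo (0), robo against robo/WT (21), comm against comm/WT (10), URyf.mef against URyf (0), WT against the others (2). With the mean of a gene's probe sets, the counts that moved by over 1.5 times were lower in UC2x (2), robo (2), slit/WT (3), UC2x against UC (1). Without dim probe sets, the counts that moved by over 1.5 times were lower in robo (3).

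The titles number the replicates in every group. Arrays with the same number in different groups did not deviate together: the correlations of their deviations had medians of 0.006, -0.003, 0.014 and 0.025 for numbers 1 to 4, between -0.63 and 0.58, and 22 of 78 arrays correlated best with their own number. The numbers were therefore not taken as pairs. With the replicate block, the counts that moved by over 1.5 times were higher in slit (0) and lower in robo (2). Of the other 47 counts none moved by over 1.5 times under the block.

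Leaving out each array in turn gave these ranges of higher and of lower members: FRM (0 to 2 and 15 to 27), WT against the others (3 to 11 and 1 to 5), UC (0 to 0 and 9 to 22), UC2x against UC (41 to 52 and 0 to 1), UC2x (12 to 32 and 0 to 1), UNC5 (14 to 25 and 0 to 1), UR (0 to 1 and 11 to 19), UR2 against UR (1 to 1 and 0 to 0), UR2 (0 to 2 and 7 to 13), URyf (0 to 0 and 1 to 11), URyf.mef against URyf (6 to 37 and 1 to 4), URyf.mef (5 to 16 and 3 to 8), comm/WT (7 to 13 and 6 to 15), comm (1 to 6 and 0 to 4), robo/WT (5 to 13 and 5 to 13), robo (0 to 4 and 0 to 3), robo12 (1 to 2 and 1 to 4), robo2 (1 to 1 and 3 to 15), slit/WT (11 to 20 and 0 to 1), slit (0 to 5 and 2 to 9), slit.robo (8 to 18 and 0 to 1), comm against comm/WT (1 to 9 and 3 to 10), robo against robo/WT (6 to 11 and 4 to 13), slit against slit/WT (0 to 1 and 8 to 17). The F test was passed by 62 to 64 members. WT replicates 2, 5 and 1 were the arrays whose absence moved the most counts by over 1.5 times.

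Of the single calls named in the text, those that turned their direction did so with the array SD as a covariate: mRpL33 to -0.0232 in FRM, -0.1372 in UNC5, -0.1896 in slit.robo, -0.1090 in URyf.mef, -0.0077 in URyf.mef against URyf, mRpS9 to -0.0829 in slit, -0.1300 in UNC5, -0.0831 in slit.robo, -0.0119 in URyf.mef, mRpS22 to -0.0457 in UC2x, 0.0281 in WT against the others, mRpL19 to -0.1272 in UC2x. A further 8 of the 70 named calls lost significance with that covariate, 16 with only the compared groups, 7 without the arrays that stood apart and 1 each after quantile normalization, with the replicate block and with the mean of a gene's probe sets. The number of arrays limits the precision: the median SE of a member's change was 0.08.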

Other observations

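Some members outside the rule for named genes, picked here after their values were seen, rose or fell in several groups. In the values as deposited, mRpL28, mRpL16, mRpL32 and mRpS28 rose in 4 groups each and fell in none, while after quantile normalization mRpL32 rose in 2, mRpL16 fell in 4 and mRpS28 in 2, and mRpL28 had no call in either direction by limma. mRpL1, whose bacterial relative forms the mobile stalk at the exit side of the ribosome, rose in 3 groups and, after quantile normalization, in 2. On the other side, mRpL40 and mRpL47 fell in 5 groups each as deposited and in 9 and 6 after quantile normalization. mRpL10, the base of the stalk that carries L12 in bacteria, fell in 4 groups and in 7 after quantile normalization. mRpL35, which had its highest mean in WT, fell in 4 groups as deposited and in 15 after quantile normalization, and mRpL55 in 3 and 15.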
